A study of Mus musculus with 4 samples.

Results

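The alpha-defensins and the other antimicrobial products of Paneth cells were examined in the irradiated small intestine (SI) of p53+/+ and p53-/- mice. The set was chosen by name, as every gene whose symbol begins with Defa and carries a number or a pseudogene suffix, together with Lyz1, Ang4, Itln1, Mmp7, Mptx1, Mptx2, Pla2g2a and Spink4. It holds 53 of the 56748 genes in the deposited table. Of these, 45 are alpha-defensins (28 annotated as protein-coding and 17 as pseudogenes) and 8 are other products.

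Paneth cells sit at the base of the crypts of Lieberkühn, next to the intestinal stem cells, and release granules filled with peptides and enzymes that kill or bind microbes. Mouse alpha-defensins, also called cryptdins, are made as inactive precursors that matrilysin (Mmp7) cleaves, and the mature peptides disrupt microbial membranes. Their genes lie side by side in a large cluster on chromosome 8 that grew by repeated duplication, so many are close copies of each other. Wnt signaling, acting through beta-catenin and the TCF/LEF factors, is known to drive the maturation of Paneth cells and the transcription of defensin genes.

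The SI was taken from WT (p53+/+) mice and from mice deficient in p53 (p53-/-), with 2 libraries in each group, at 1 day post-TBI. Every mouse had received 12 Gy of total body irradiation from a Cs-137 source, so the comparison is between genotypes after irradiation and holds no unirradiated control. The p53-/- mice lack p53 in all tissues from birth, and the methods describe the mice of both genotypes as matched for age and gender. RNA came from whole tissue, in which fewer Paneth cells and less RNA in each Paneth cell cannot be told apart. The libraries are named here by the numbers of their columns, 7 and 8 for p53+/+ and 9 and 10 for p53-/-. The numbers pair no animals.

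Libraries held 15005479 to 22173164 counts. Trp53 itself stood at 57.7 and 47.1 CPM (counts relative to the library total after TMM scaling) in p53+/+ and at 19.8 and 22.5 CPM in p53-/- SI. Library 10 stood apart from the other libraries in 3 respects. Its counts of Xist, the RNA that coats the inactive X chromosome, were 588, against 2, 0 and 4 in libraries 7, 8 and 9, although the methods describe gender-matched mice. The share of counts on the 18S rRNA gene was 4.59% in library 10, against 0.296% to 0.863% in the other libraries. The summed level of 7 B cell and follicle markers was 441 CPM in library 10, against 1.55, 2.14 and 22 CPM in libraries 7, 8 and 9, and Ms4a1 among them was at 0 in library 7. Values without it are therefore given beside the main results and beside genes whose change it carried.

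Because the genes are close copies, the sequences decide which of them can be counted apart. Defa24 and Defa30 are shown as copies that differ enough to be told apart over 100 bases, and Defa23 with Defa31 as a pair that is not. Each coding sequence below is read from the GENCODE M21 transcripts on the coding strand without its stop codon, and capitals mark the bases that differ from Defa24. The coding sequence of Defa31 is identical to that of Defa23.
Defa24: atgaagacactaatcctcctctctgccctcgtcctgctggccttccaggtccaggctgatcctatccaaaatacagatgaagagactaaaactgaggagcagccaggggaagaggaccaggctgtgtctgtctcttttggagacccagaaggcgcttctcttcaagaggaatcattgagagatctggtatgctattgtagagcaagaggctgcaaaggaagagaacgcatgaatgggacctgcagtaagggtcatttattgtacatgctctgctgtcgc
Defa30: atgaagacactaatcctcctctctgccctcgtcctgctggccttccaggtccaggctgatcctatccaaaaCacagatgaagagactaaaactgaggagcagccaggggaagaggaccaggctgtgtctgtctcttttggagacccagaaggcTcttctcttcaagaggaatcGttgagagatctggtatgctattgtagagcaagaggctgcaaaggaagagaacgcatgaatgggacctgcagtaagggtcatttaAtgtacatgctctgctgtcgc
Defa31 and Defa23: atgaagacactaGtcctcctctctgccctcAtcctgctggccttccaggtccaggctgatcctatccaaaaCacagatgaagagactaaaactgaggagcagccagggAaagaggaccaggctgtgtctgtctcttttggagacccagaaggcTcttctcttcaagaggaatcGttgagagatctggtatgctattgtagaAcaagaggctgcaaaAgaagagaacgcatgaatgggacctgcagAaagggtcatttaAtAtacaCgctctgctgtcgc
Over their 279 coding bases, Defa30 differed from Defa24 at 4 positions and Defa31 at 12. Among the 28 protein-coding defensins, 6 of 378 pairs had identical coding sequences. The least alike pair shared 60.4% of the positions in its alignment, with positions in a gap counted as different. When every stretch of 100 bases of each transcript was looked up in the transcripts of the other defensins, 13 of the 28 genes shared more than 80% of their stretches and 9 shared less than 20%. None of the stretches of Defa24 (0.0%) and almost none of Defa30 (0.3%) occurred elsewhere, whereas the share was 40.4% for Defa21, 40.3% for Defa22, 89.1% for Defa23 and 100% for Defa31. The read length is not given in the sources used here, so the 100 bases are an assumed length. At 50 bases the share was 28.1% for Defa24, 52.4% for Defa30, 72.9% for Defa21 and 74.9% for Defa22. At 150 bases it was 0.0% for Defa24 and Defa30, 10.8% for Defa21 and 10.7% for Defa22. Which genes can be counted apart thus depends on the length. Defensin counts were therefore summed first, over all genes and then over groups of near-identical genes, and single genes were read afterwards.

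Summed over the 45 genes, alpha-defensins took 234717 and 153681 counts in p53+/+ SI, against 390409 and 426477 in p53-/- SI. After scaling, this was 14526 and 9971 CPM in p53+/+ and 17111 and 21214 CPM in p53-/- SI. Both p53-/- libraries were above both p53+/+ libraries, and the 2 libraries within a genotype were also well apart. The mean was 12248 ± 3220 CPM in p53+/+ and 19162 ± 2901 CPM in p53-/- SI (SD, n = 2), a ratio of 1.56 and a log2 ratio of 0.65, against a spread between replicates of 0.31 on the log2 scale. Without library 10 the log2 ratio was 0.48, and without library 8 it was 0.40. The sum was given no test, since its genes were chosen with results of these data known. Pseudogenes contributed little to it, with 23.1, 18.1, 32.1 and 35.3 CPM in libraries 7, 8, 9 and 10. Together with the 8 other products, the set took 2.15% and 1.62% of all counts in p53+/+ and 2.82% and 3.38% in p53-/- SI.

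**Figure D1:**
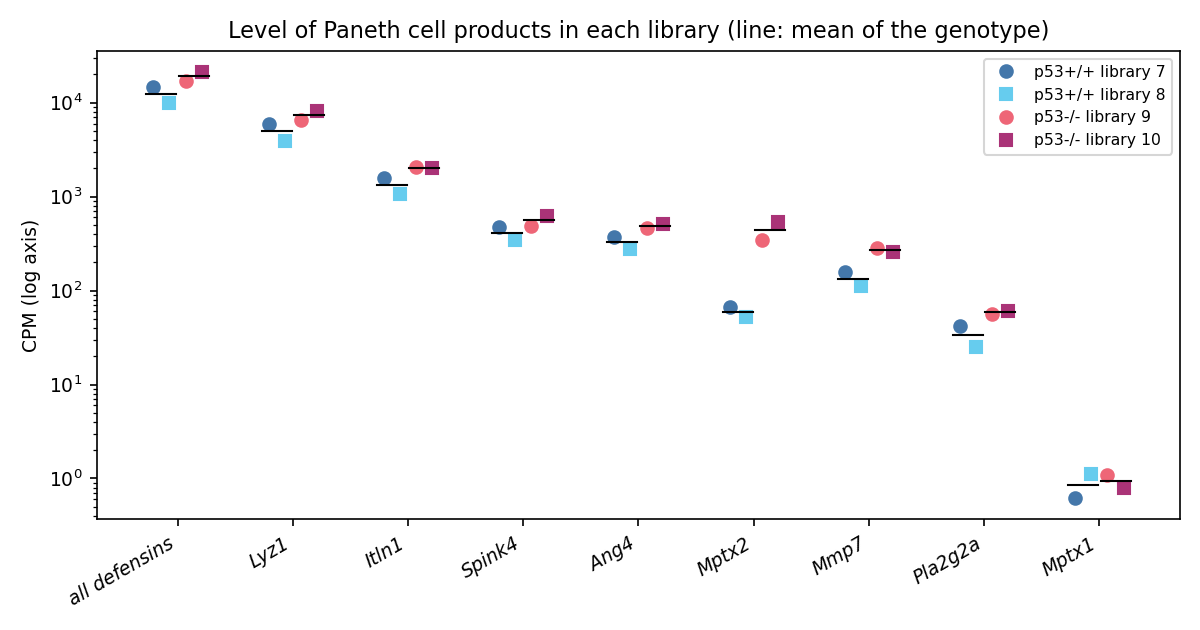
CPM on a log axis of the summed alpha-defensins and of the 8 other products in each of the 4 libraries, with a line at the mean of each genotype. Libraries are to be compared within a gene, since levels are not divided by transcript length. For the defensin sum the p53-/- libraries lie at 17111 and 21214 CPM, above the p53+/+ libraries at 14526 and 9971 CPM, and the widest gap between genotypes is that of Mptx2.

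Of the 6 defensins with the most counts, Defa24 is the one whose 100-base stretches are least shared. The gene (ENSMUSG00000064213) stood at 3331 and 2478 CPM in p53+/+ and at 4253 and 4642 CPM in p53-/- SI, with a log2 fold change of 0.61, a standard error of 0.338 and an adjusted p of 0.417. Here and below, adjusted p-values come from the quasi-likelihood F-test in edgeR, corrected over all tested genes by the Benjamini-Hochberg procedure. Defa30, also well separated over 100 bases, was at 1477 and 1002 CPM against 1927 and 1962 CPM, a log2 fold change of 0.65. Both genes had p53-/- libraries above p53+/+ libraries by less than the test could separate from the spread. Defa21 was at 2463 and 1633 CPM in p53+/+ and 2845 and 4292 CPM in p53-/- SI, a log2 fold change of 0.80 (0.53 without library 10). Defa22, whose promoter is identical to that of Defa21, was at 2787 and 2069 CPM against 2652 and 3663 CPM, so that its genotypes overlapped. Defa20 (1085 and 606 against 1055 and 806 CPM) and Defa38 (679 and 478 against 840 and 1039 CPM) complete the 6 genes, with overlap for Defa20 and none for Defa38. Divided by transcript length, the order in p53+/+ SI was Defa24 at 6933 CPM per kilobase, Defa22 at 5795, Defa21 at 4899, Lyz1 at 3930 and Defa30 at 3114. Neighbours in this order differed by less than the gap between the 2 libraries of the genotype. In p53-/- SI Defa24 was again first, at 10614 CPM per kilobase, and Defa21 at 8537 and Defa22 at 7536 were in the opposite order. They differed by less than the gap between the 2 p53-/- libraries. In CPM, Defa21 was above Defa22 in both p53-/- libraries and below it in both p53+/+ libraries.

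Across the table, 16094 genes had enough counts to be tested, and among them were 31 defensins and all 8 other products. The 14 genes left out were all defensins, of which 7 had no count in any library and none exceeded 14 counts in a library. Of the 39 tested genes, 37 had at least 10 counts in both p53+/+ libraries. The log2 fold change (p53-/- over p53+/+) was above 0 for 37 of the 39, against 49.3% of all tested genes, and its median was 0.80 over the set, 1.05 over the defensins and 0.60 over the other products, against -0.01 over all tested genes. Both p53-/- libraries were above both p53+/+ libraries for 32 of the 39 genes, where the background was 26.4% of all tested genes, and below them for 0 genes, where it was 24.4%. Defa17 and Defa28 were the 2 genes below 0, at -0.22 and -0.20. Such counts run over genes that share reads, promoters and a cell of origin, and are not counts of independent events.

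Past an adjusted p of 0.05 in edgeR, 1 of the 39 genes was higher in p53-/- SI, where the background was 0.298% of tested genes, and 0 were lower, against 0.193%. The gene was Mptx2. At an unadjusted p under 0.05 in the same test, 19 of the 39 were higher (background 10%) and 0 were lower (background 7.92%). DESeq2 called 13 of the 39 higher (background 5.15%) and 0 lower (background 4.18%), namely Mptx2, Mmp7 and 11 defensins (Defa24, Defa26, Defa29, Defa31, Defa32, Defa34, Defa35, Defa39, Defa40, Defa41 and Defa42). Likewise, edgeR's likelihood ratio test called 12 of the 39 higher (background 5.18%). In the quasi-likelihood fit, the adjusted p was 0.0560 for Defa31, 0.0967 for Defa35, 0.106 for Defa42, 0.113 for Defa34 and 0.127 for both Mmp7 and Defa26. The number of calls thus hung on how the spread was estimated from 2 libraries a genotype. The sign of a fold change hardly depends on that estimate, so the shared direction of these tests is no added support. Without library 8, the log2 fold change was above 0 for 34 of the 39 genes and below 0 for 5. Without library 10, the quasi-likelihood fit called 0 genes in the whole table, with 767 higher and 434 lower at an unadjusted p under 0.05. Of the 40 members tested there, 37 had a log2 fold change above 0, and 14 were higher at an unadjusted p under 0.05 (4.59% of all genes tested in that fit).

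**Figure D2:**
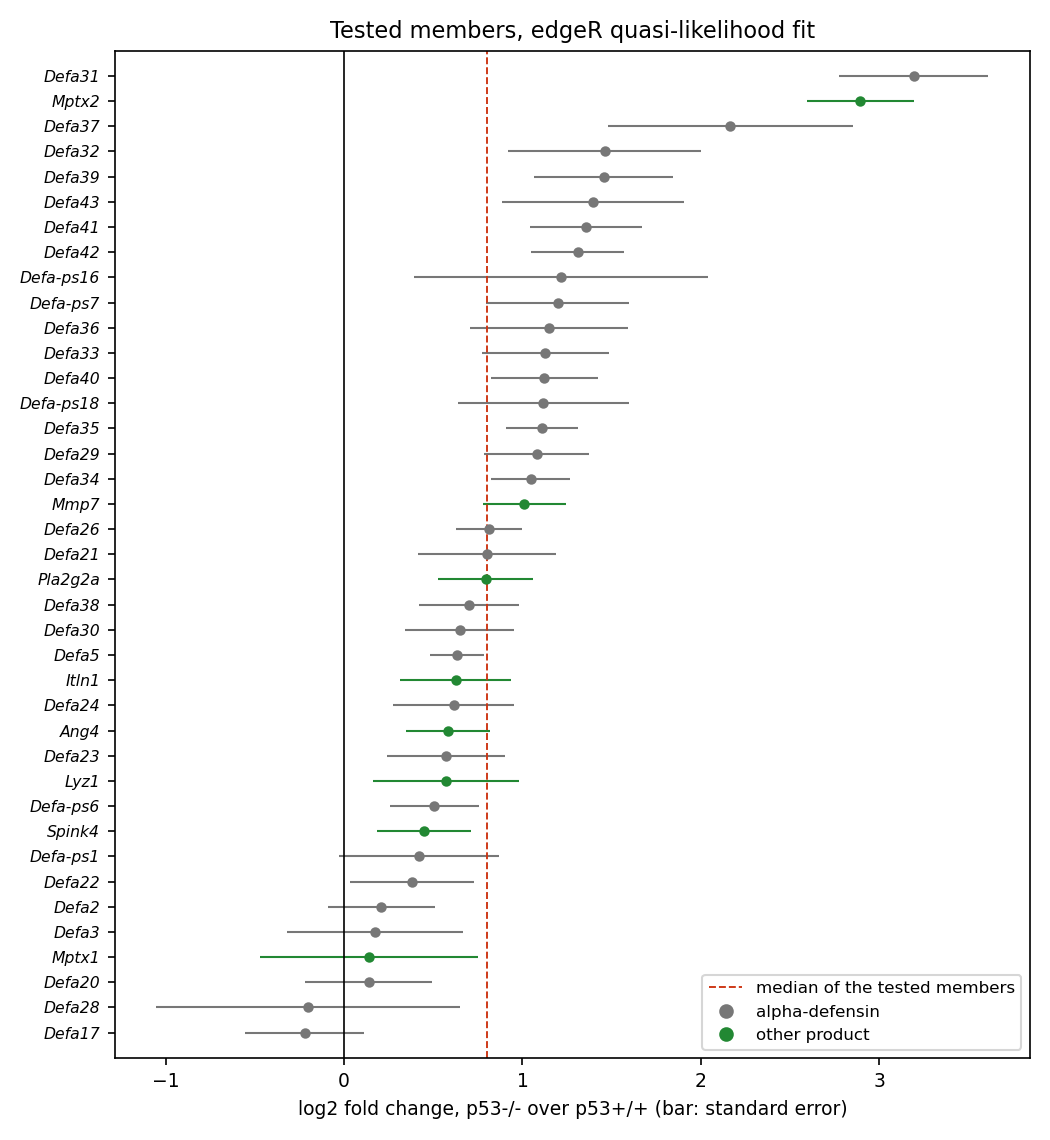
Log2 fold change of p53-/- over p53+/+ SI for the 39 tested genes, with the standard error from edgeR's quasi-likelihood fit as a bar. Defensins are grey and other products green. The dashed line marks the median of the set at 0.80, and 37 of the 39 points lie to the right of 0.

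Mptx2 (ENSMUSG00000079180) encodes a mucosal pentraxin, a secreted lectin-like protein of Paneth cells related to serum amyloid P. It had 1074 and 811 counts in p53+/+ and 7900 and 10831 counts in p53-/- SI, or 66.5 and 52.6 against 346.2 and 538.8 CPM. Its p53-/- libraries were several-fold above both p53+/+ libraries, and the libraries of each genotype were close together by comparison. The log2 fold change was 2.89 with a standard error of 0.300 and an adjusted p of 0.0416 in edgeR, and the mean level was 7.43-fold higher. Without library 10 the log2 fold change was 2.60 and the call was lost (edgeR adjusted p of 0.189). Without library 7, 8 or 9 it was 3.08, 2.73 and 3.17 with edgeR adjusted p of 0.0177, 0.0181 and 0.0348. Mptx1, a close relative on the same chromosome, had 10, 17, 25 and 16 counts in libraries 7, 8, 9 and 10, which overlapped between genotypes. The coding sequences of both genes were 91.9% identical, and 3.3% of the 100-base stretches of Mptx2 occurred in Mptx1, so few reads of Mptx2 could have come from its relative at that length.

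The promoters of Mptx2 and Mptx1 are shown because these closely related genes differed so widely in counts. Each runs from 250 bases before to 50 bases after the RefSeq start in GRCm38.p6, read along the gene's strand, and capitals mark bases that differ from the other promoter or have no partner in the alignment. Mptx2 is at chr1:173277707-173278006 on the minus strand and Mptx1 at chr1:174330268-174330567 on the plus strand. Over the whole alignment 76.7% of positions were the same, with bases that have no partner counted as different. Such bases include a run at the end of the Mptx2 window and another at the start of the Mptx1 window. The share over paired bases alone is therefore higher.
Mptx2: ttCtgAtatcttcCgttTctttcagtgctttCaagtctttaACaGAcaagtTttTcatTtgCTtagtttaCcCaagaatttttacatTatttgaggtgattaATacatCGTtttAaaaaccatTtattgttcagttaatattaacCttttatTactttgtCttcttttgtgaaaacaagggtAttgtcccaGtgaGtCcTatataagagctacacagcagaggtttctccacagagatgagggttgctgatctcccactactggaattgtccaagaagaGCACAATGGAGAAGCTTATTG
Mptx1: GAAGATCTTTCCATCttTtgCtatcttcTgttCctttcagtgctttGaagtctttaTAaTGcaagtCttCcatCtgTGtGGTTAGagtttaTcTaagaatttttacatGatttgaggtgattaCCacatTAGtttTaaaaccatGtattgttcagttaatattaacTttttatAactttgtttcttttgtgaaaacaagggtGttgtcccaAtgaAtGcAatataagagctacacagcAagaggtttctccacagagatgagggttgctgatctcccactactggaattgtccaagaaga

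Among the defensins, several wide fold changes belonged to genes that share their coding sequence with another gene, and others did not. Defa39, none of whose 100-base stretches occurred in another defensin (0.0%), was at 293 and 185 CPM in p53+/+ and 462 and 849 CPM in p53-/- SI, a log2 fold change of 1.45 (1.01 without library 10). Defa31 (ENSMUSG00000074442) was at 4.21 and 6.49 CPM in p53+/+ and at 33.4 and 64.5 CPM in p53-/- SI, a 9.16-fold higher mean and a log2 fold change of 3.19 with a standard error of 0.417 and an edgeR adjusted p of 0.0560 (2.69 and 0.359 without library 10). Its twin Defa23 was at 149.5 and 79.1 against 187.7 and 152.5 CPM, a log2 fold change of 0.57. Summed, the pair stood at 154 and 85.6 CPM in p53+/+ and 221 and 217 CPM in p53-/- SI, a mean 1.83-fold higher. The ratio of the sum was thus far below that of Defa31 alone, and how the counting assigned reads between these genes was not tested. The same step taken for the other pairs gave a 3.19-fold higher mean for Defa36 with Defa37 (197 and 110 against 273 and 706 CPM) and a 2.49-fold higher mean for Defa42 with Defa43 (174 and 108 against 345 and 358 CPM). For the former, library 10 was more than 2 times library 9, and without it the log2 fold change of Defa37 was 0.76 in place of 2.17. The ratio was 1.37 for Defa20 with Defa32, where Defa32 alone had a log2 fold change of 1.46 (0.71 without library 10) and Defa20 of 0.14 (0.38 without it). It was 1.17 for Defa2 with Defa33 and 0.906 for Defa17 with Defa3, and in these 2 pairs the genotypes overlapped.

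**Figure D3:**
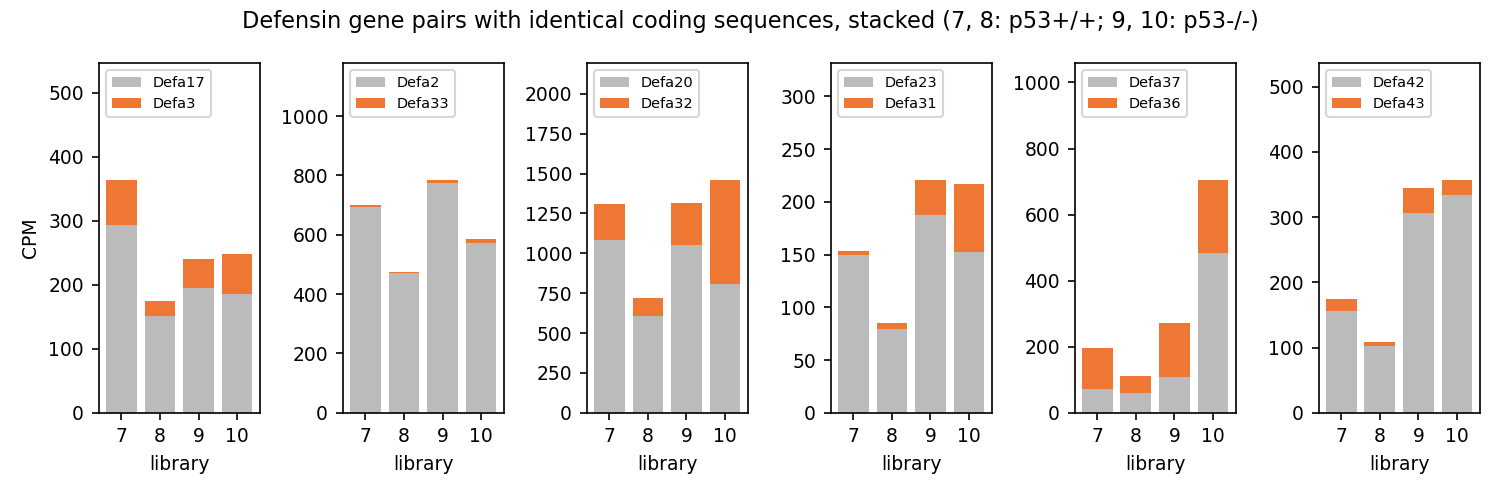
CPM in each library of the 6 pairs of defensin genes with identical coding sequences, stacked with the gene of more counts in grey below and its twin in orange above. Libraries 7 and 8 are p53+/+ and libraries 9 and 10 p53-/-. In Defa23 with Defa31 the orange part is 4.21 and 6.49 CPM in p53+/+ and 33.4 and 64.5 CPM in p53-/- SI, while the whole bar goes from 154 and 85.6 to 221 and 217 CPM.

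The make-up of the defensin pool was then compared over groups of genes linked by at least 95% identity of coding sequence to another gene of the group. Defa24 with Defa30, Defa17, Defa23, Defa3 and Defa31 gave 36.7% and 37.5% of defensin counts in p53+/+ and 38.8% and 33.3% in p53-/- SI. Defa21 with Defa22 gave 36.1% and 37.1% against 32.1% and 37.5%. In both of these groups, which together held most defensin counts, the shares overlapped between genotypes, as they did for Defa20 with Defa2, Defa32 and Defa33 (13.8% and 12.0% against 12.3% and 9.66%). The minus-strand genes Defa38, Defa39, Defa29, Defa42 and Defa43 gave 9.53% and 9.41% of defensin counts in p53+/+ and 11.7% and 12.98% in p53-/- SI. In CPM this group was at 1384 and 938 against 1994 and 2754, a ratio of 2.04. The group of Defa34, Defa37, Defa36, Defa5, Defa35 and Defa41 gave 3.23% and 3.31% against 4.41% and 5.78%, and a ratio in CPM of 2.48. The small group of Defa26 with Defa40 gave 0.426% and 0.496% against 0.524% and 0.580%. In these 3 groups both p53-/- shares were above both p53+/+ shares, in library 9 as in library 10. Defa28 with Defa27 and Defa25 had 9 to 29 counts in a library, and its genotypes overlapped. Shares within a pool depend on each other and were given no test.

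**Figure D4:**
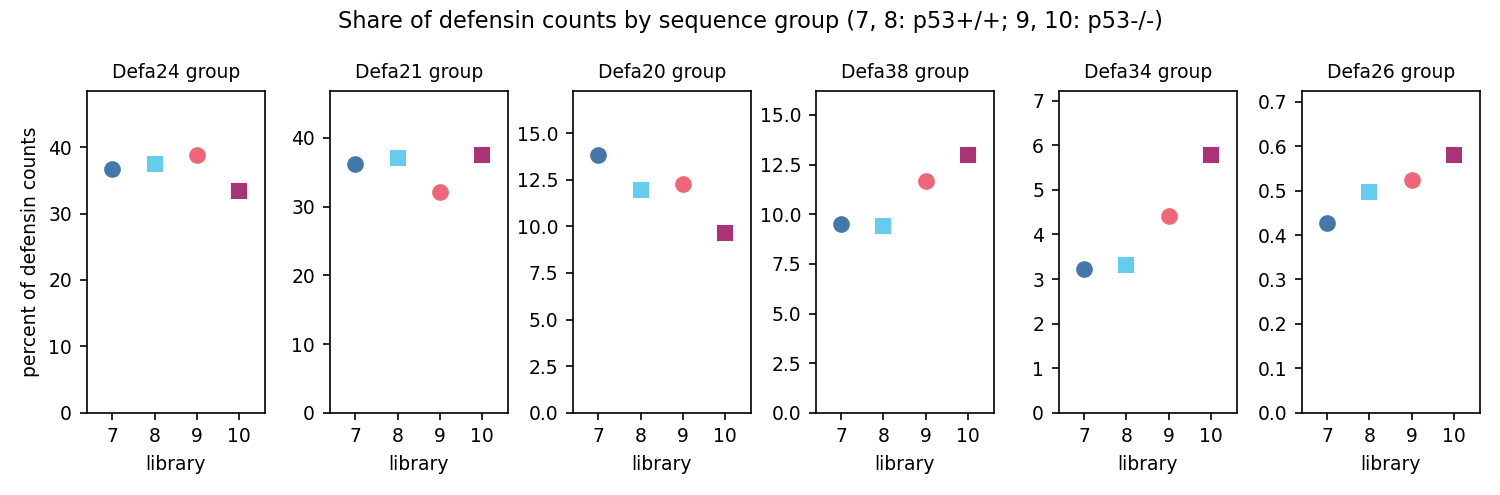
Percent of all defensin counts taken by each of 6 sequence groups in each library, named by the member with the most counts, on linear axes that start at 0 and differ in range. The groups of Defa38, Defa34 and Defa26 have higher shares in both p53-/- libraries (9 and 10) than in both p53+/+ libraries (7 and 8), and the groups of Defa24, Defa21 and Defa20 overlap.

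Among the enzymes and lectins, Lyz1 (ENSMUSG00000069515), the lysozyme of Paneth cells that cleaves bacterial cell walls, was at 5999 and 3929 CPM in p53+/+ and 6593 and 8140 CPM in p53-/- SI, with a log2 fold change of 0.57 with a standard error of 0.409 and an edgeR adjusted p of 0.542. Its relative Lyz2, the lysozyme of macrophages, shared 2.1% of 100-base stretches with it. Lyz2 was at 12.4 and 46.1 against 53.2 and 411 CPM, highest in library 10. Itln1, an intelectin that binds microbial sugars and is also made by goblet cells, was at 1575 and 1058 against 2065 and 1998 CPM. Ang4, a ribonuclease of the angiogenin family with activity against bacteria, was at 374 and 277 against 460 and 516 CPM. For both genes the p53-/- libraries lay above the p53+/+ libraries without passing the test, with log2 fold changes of 0.63 and 0.58. Spink4, a serine protease inhibitor of goblet and Paneth cells, was at 472 and 347 against 489 and 628 CPM, a log2 fold change of 0.45. Pla2g2a, a secreted phospholipase that attacks bacterial membranes, is annotated in GENCODE M21 as a polymorphic pseudogene, and its transcript was counted at 42.2 and 25.2 against 55.8 and 61.1 CPM (log2 fold change 0.79).

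Mmp7 (ENSMUSG00000018623), the protease that activates the defensins, was at 157 and 112 CPM in p53+/+ and 284 and 257 CPM in p53-/- SI. Its genotypes did not overlap, and its log2 fold change was 1.01 with a standard error of 0.230 and an edgeR adjusted p of 0.127. DESeq2 called it past the threshold, and the quasi-likelihood fit did not.

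To see whether the products kept their proportions, each was divided by the defensin counts of its own library, which removes the scaling of the libraries. Lyz1 gave 41.3 and 39.4 counts for every 100 defensin counts in p53+/+ and 38.5 and 38.4 in p53-/- SI. Both p53-/- ratios were thus slightly below both p53+/+ ratios, while the defensin sum itself ranged from 9971 to 21214 CPM. Itln1 gave 10.8 and 10.6 against 12.1 and 9.42, Ang4 gave 2.58 and 2.77 against 2.69 and 2.43, and Pla2g2a gave 0.291 and 0.253 against 0.326 and 0.288. For these 3 genes the genotypes overlapped. Spink4 was lower per defensin count in p53-/- SI, with 3.25 and 3.48 against 2.86 and 2.96, and Mmp7 was higher, with 1.08 and 1.12 against 1.66 and 1.21. Mptx2 stood apart from the rest, with 0.458 and 0.528 counts per 100 defensin counts in p53+/+ and 2.02 and 2.54 in p53-/- SI, a mean 4.63-fold higher.

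**Figure D5:**
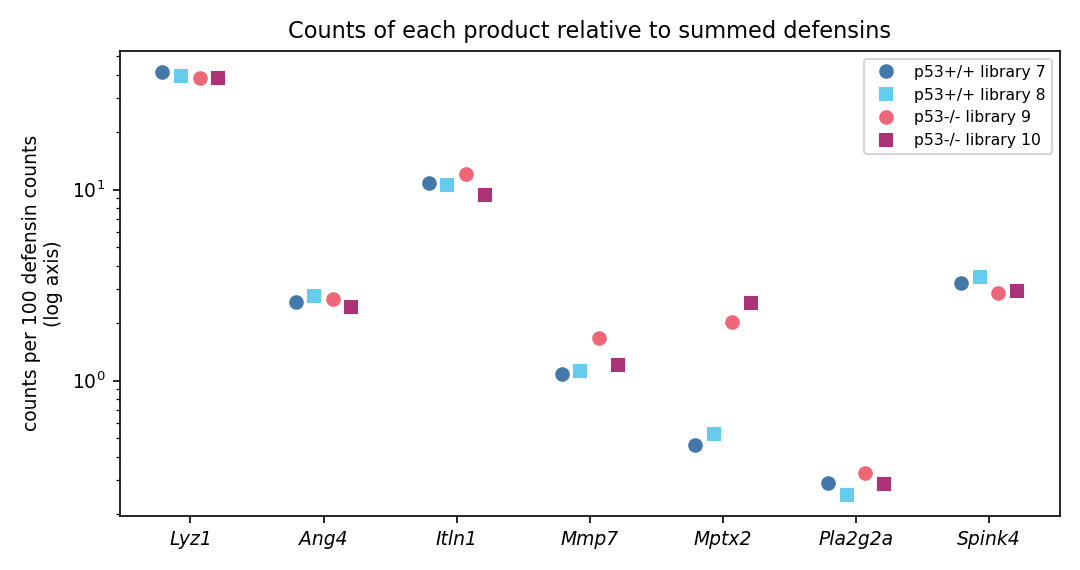
Counts of 7 products for every 100 defensin counts of the same library, on a log axis, with 1 point for each library. Lyz1 lies between 38.4 and 41.3 in all 4 libraries, and Mptx2 at 0.458 and 0.528 in p53+/+ and 2.02 and 2.54 in p53-/- SI.

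Promoters were searched because defensin genes are known targets of the Wnt pathway. The letters ATCAAAG, the core bound by TCF/LEF factors, were looked for on either strand (CTTTGAT on the other) in the 300 bases around each RefSeq start, and no other motif was searched. Of the set, 22 genes matched a RefSeq promoter, 16 of them defensins. The motif stood in 13 of the 16 defensin promoters and in 2 copies in 9 of them, where 3.73% of all 32851 promoters held it and 0.1% held 2 or more copies. Several of these promoters are copies of each other, with 11 distinct sequences among the 16. It was found in Mmp7 and not in the windows of Lyz1, Ang4, Itln1, Mptx1 or Mptx2, nor in those of Defa38, Defa42 and Defa43. These letters describe the sequence, and no binding was measured. The promoter of Defa21 and Defa22 is shown as that of a pair with many counts, that of Defa31 and Defa23 as that of the twins above, Defa42 as one without the motif, and Mmp7 as the protease. Capitals mark the motif. In GRCm38.p6, the windows of Defa21 at chr8:21025295-21025594, Defa31 at chr8:21191323-21191622 and Mmp7 at chr9:7691840-7692139 are on the plus strand, and that of Defa42 at chr8:21456468-21456767 is on the minus strand.
Defa21 and Defa22: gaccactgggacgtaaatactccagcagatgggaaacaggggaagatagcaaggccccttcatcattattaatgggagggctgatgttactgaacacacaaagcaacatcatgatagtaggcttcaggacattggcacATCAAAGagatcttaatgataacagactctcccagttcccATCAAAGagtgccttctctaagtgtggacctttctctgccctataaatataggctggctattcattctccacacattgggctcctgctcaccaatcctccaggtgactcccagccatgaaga
Defa31 and Defa23: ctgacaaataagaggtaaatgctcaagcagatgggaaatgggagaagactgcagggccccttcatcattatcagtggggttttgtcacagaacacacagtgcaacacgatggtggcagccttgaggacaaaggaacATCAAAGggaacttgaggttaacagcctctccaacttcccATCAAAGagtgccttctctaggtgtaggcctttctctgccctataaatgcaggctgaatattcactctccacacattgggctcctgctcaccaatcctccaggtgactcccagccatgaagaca
Defa42: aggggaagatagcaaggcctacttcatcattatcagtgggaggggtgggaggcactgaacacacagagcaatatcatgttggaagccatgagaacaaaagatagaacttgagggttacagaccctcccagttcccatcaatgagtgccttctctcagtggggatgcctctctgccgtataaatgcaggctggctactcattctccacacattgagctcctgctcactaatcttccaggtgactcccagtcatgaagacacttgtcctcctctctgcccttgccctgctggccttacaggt
Mmp7: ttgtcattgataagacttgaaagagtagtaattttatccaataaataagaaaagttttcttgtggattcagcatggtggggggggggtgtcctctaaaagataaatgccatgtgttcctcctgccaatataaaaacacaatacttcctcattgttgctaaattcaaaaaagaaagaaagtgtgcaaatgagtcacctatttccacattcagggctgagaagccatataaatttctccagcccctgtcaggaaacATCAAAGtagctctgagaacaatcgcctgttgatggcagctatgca
The log2 fold changes of genes with and without the letters overlapped. Defa42 and Defa43, which lack the letters, had log2 fold changes of 1.31 and 1.40, and Defa38, which also lacks them, 0.70. Defa21 and Defa22, with 2 copies in identical windows, had 0.80 and 0.38, and Defa20 and Defa2, also identical to each other with 2 copies, 0.14 and 0.21. Over all 13 defensins with the letters, the values ran from -0.20 for Defa28 to 3.19 for Defa31 (2.69 without library 10). Their range thus enclosed that of the genes without the letters.

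The genes that build and equip Paneth cells were taken from lists outside the set. The counts below are to be read against 10% of all tested genes higher and 7.92% lower at an unadjusted p under 0.05, and 5.15% and 4.18% in DESeq2. Of 17 factors of Paneth cell development and secretion, 0 passed the threshold in either direction in edgeR (6 higher and 0 lower at an unadjusted p under 0.05, and 3 higher in DESeq2), and the median log2 fold change was 0.40. Xbp1, which expands the secretory apparatus, was at 274 and 218 CPM in p53+/+ and 396 and 381 CPM in p53-/- SI (log2 fold change 0.66). Cd24a, a surface marker of Paneth cells, had 0.57 and Fzd5, the Wnt receptor needed for their maturation, 0.06. Of 6 niche ligands that Paneth cells offer to stem cells, 0 passed in either direction (1 higher and 1 lower at an unadjusted p under 0.05, and 0 in DESeq2), with a median of 0.26. Among them Dll4 had a log2 fold change of -0.56, Tgfa of -0.75 and Dll1 of 0.29. Of 13 tested secreted products outside the set, 0 passed (5 higher and 2 lower at an unadjusted p under 0.05, and 4 higher and 2 lower in DESeq2), with a median of 0.59. Reg3b and Reg3g, C-type lectins that enterocytes make as well, led this list with 4170 and 5958 against 16706 and 18465 CPM and 1873 and 3357 against 11564 and 13062 CPM. Their log2 fold changes of 1.80 and 2.24 had edgeR adjusted p of 0.148 and 0.113, and Guca2b, the precursor of uroguanylin, had -1.33.

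Of 21 other tested antimicrobial genes of the gut outside the set, 1 rose and 0 fell past the threshold in edgeR (13 and 2 at an unadjusted p under 0.05, and 6 and 2 in DESeq2), and the median log2 fold change was 1.31. The gene was Duoxa2, the maturation factor of the hydrogen peroxide-producing oxidase Duox2, at 51.5 and 35.4 CPM in p53+/+ and 316 and 254 CPM in p53-/- SI (log2 fold change 2.71, edgeR adjusted p of 0.0352). The call was lost without library 9 (edgeR adjusted p of 0.057) and without library 10 (edgeR adjusted p of 0.189). Lypd8 and Pigr, which keep bacteria off the epithelium and carry IgA across it, had log2 fold changes of 1.13 and 1.62, and Zg16, a goblet cell lectin, had -0.96. Of 10 tested relatives of the products, 0 passed (3 higher and 1 lower at an unadjusted p under 0.05, and 2 higher in DESeq2), with Spink1 at 0.17, Lyz2 at 2.99 and Rnase4 at -0.52. Without library 10, Lyz2 was at 0.90 and Spink1 at 0.02. Of 12 tested cytokines and receptors that act on Paneth cells, 0 passed (3 higher and 1 lower at an unadjusted p under 0.05, and 1 of each in DESeq2). In this list 8 genes were above 0 and 4 below, with a median of 0.24. The most abundant were Ifngr1 at -0.66, Ifngr2 at -0.52 and Il13ra1 at 0.16. The highest values were those of Il17a at 6.85 (0, 0, 17 and 16 counts in libraries 7, 8, 9 and 10), Tlr9 and Tnf. Tlr9 had 2.52 and was highest in library 10. Tnf had 2.33, at 2.54 and 1.62 against 7.80 and 13.2 CPM.

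Markers of Paneth cells that are not in the set stood at a summed 433 and 345 CPM in p53+/+ and 504 and 477 CPM in p53-/- SI, with 7 of 9 above 0 on the log2 scale and a median of 0.82. Each of the 9 had at least 85 counts in every library, and some of them, such as Sox9, are also expressed in other crypt cells. All 9 also belong to the lists of development factors, niche ligands or secreted products above, so they add no separate evidence. Markers of other cell types also differed in level between genotypes. Summed enterocyte markers were at 26968 and 26944 against 21348 and 17664 CPM (9 of 10 below 0), and goblet markers at 18695 and 15999 against 13988 and 11792 CPM (6 of 10 below 0). Crypt stem cell markers were at 452 and 426 against 942 and 888 CPM, with 4 of 7 genes above 0. Olfm4 carried this difference, at 47.6 and 16.0 against 473 and 525 CPM, and the other 6 genes summed to 404 and 410 against 468 and 363 CPM, which overlapped. Proliferation markers were at 316 and 195 against 495 and 567 CPM (6 of 6 above 0). T cell markers were at 5.94 and 12.2 against 53.4 and 98.7 CPM (7 of 7 above 0). Macrophage and neutrophil markers were at 53.2 and 172 against 206 and 630 CPM, with 6 of 6 tested genes above 0. Ly6g, Mpo, Elane and Camp were under 10 counts in every library. Lyz2 alone gave 411 of the 630 CPM in library 10, and without that library its log2 fold change was 0.90 in place of 2.99. Among the tested genes Adgre1 overlapped between genotypes (2.54 and 8.24 against 8.50 and 6.42 CPM). Of 74 tested marker genes, those of gut segment, B cells and pancreas included, 0 passed the threshold in edgeR, 28 were higher and 8 lower at an unadjusted p under 0.05, and 20 were higher and 8 lower in DESeq2. Over all tested genes these shares were 10% and 7.92% at an unadjusted p under 0.05, and 5.15% and 4.18% in DESeq2.

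Paneth cells are known to become more abundant along the SI toward the ileum, so markers of gut segment were read beside the defensins. Ileum markers were at a summed 8375 and 4363 CPM in p53+/+ and 3141 and 3597 CPM in p53-/- SI, with 5 of 5 below 0. Markers of the proximal SI were at 38.1 and 25.4 against 102 and 88.2 CPM, with 4 of 5 tested above 0 and Pdx1 and Trpv6 under 10 counts in every library. Colon markers were at 249 and 277 against 428 and 439 CPM, with 2 of 4 tested above 0 and Aqp8 and Hoxb13 under 10 counts. Pancreas markers were near the floor, with 9 of 10 under 10 counts in every library. The defensin sum was thus higher in the p53-/- libraries, in which ileum markers were lower. The part of segment and cell make-up in the levels of Paneth cell products was not tested.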

How the data were processed

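Poly-A selected RNA of the SI was sequenced in 2 p53+/+ and 2 p53-/- libraries. For 56748 genes, the authors deposited unnormalized whole-number counts. Per the submitters' processing notes, fastp, HISAT2 2.0.5, featureCounts 1.5.0-p3 and DESeq2 1.20.0 were used. The genome build, annotation, strand setting, handling of reads that fit several genes and read length are not given in the sources used here. Totals were 17430246, 15005479, 22173164 and 19811346 counts in libraries 7, 8, 9 and 10.

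From these counts, libraries were scaled by TMM, low genes were removed with filterByExpr, and 16094 genes were tested by genotype with edgeR 4.0.16 (quasi-likelihood test, two-sided, Benjamini-Hochberg adjustment, threshold 0.05) in R 4.3.3. DESeq2 1.42.0 was an alternative. The deposited counts were tested without rounding or correction. The test was first run on data simulated from these libraries with a log2 change of 3 in 200 genes. It recovered 164 of the 200 and made 10 false calls. That result does not speak to smaller changes, such as the median of 0.80 over the set. Nothing in the labels says that the 2 libraries of a genotype came from separate animals. The paper describes its n values as biological replicates. Xist was at 4 counts in library 9 and 588 in library 10, a difference that is not expected within the same animal. P-values measure only the spread between these samples. These differed by more than sampling noise (chi-square per degree of freedom 34.5 for p53+/+ and 48.9 for p53-/-). Columns of the table name the genotype and not the replicate.

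The members and lists were chosen with earlier results of these data known. All members were accounted for. The defensins given in every library are the 6 with the most counts and those discussed for their sequence or read sharing, the latter chosen after their values were seen. From each list the 3 genes with the highest mean CPM and any that passed were named. Il17a, Tlr9 and Tnf were added after their values were seen. Marker lists were given as sums, with Olfm4, Lyz2 and Adgre1 chosen after their values were seen. All 53 gene identifiers matched GENCODE M21, which gave transcripts, lengths and coding identity. Promoters are those of RefSeq, build GRCm38.p6.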

Additional observations from a re-analysis of the deposited data

How the results depend on the processing

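Scaling by RLE or upper-quartile factors, by total counts only, or with the set left out of the totals changed no call among the set. The number of members called higher was 13 with DESeq2, 12 with edgeR's likelihood ratio test and 18 with no filter, against 1 in edgeR's quasi-likelihood test, and ranged from 0 to 7 when each library was left out in turn. With no filter, 46 members were tested. Members called lower numbered 0 in edgeR's quasi-likelihood test under each alternative. Genes called higher and lower in the whole table numbered 48 and 31 in that test, 29 and 20 with upper-quartile factors, 26 and 20 with total counts only, 796 and 647 with DESeq2, 833 and 462 with the likelihood ratio test, 1433 and 761 with no filter and 23 and 19 with at least 10 counts in every library. Leaving out each library gave 0 to 680 higher and 0 to 344 lower, with 0 of either without library 10. The log2 ratio of summed defensins ranged from 0.40 to 0.94 when each library was left out. It was 0.0028 as a share of the counts of all members and 0.0688 as a ratio to Lyz1. Defensins held 234717 of the 375087 counts of all members in library 7, so such a share can move little. Both values compare products with each other and do not measure the level of the defensins. Log2 fold changes that turned sign when a library was left out ranged from -0.23 to 0.63 for Defa20, -0.0513 to 0.53 for Defa2, -0.63 to 0.35 for Defa17, -0.40 to 1.14 for Defa3, -0.92 to 0.96 for Defa28, -0.21 to 0.60 for Mptx1, -0.0648 to 0.41 for Slc12a2, -0.48 to 0.0289 for Axin2, -0.46 to 0.0542 for Anpep, -0.48 to 0.0459 for Fcgbp, -1.57 to 0.0225 for Fabp6, -0.0819 to 0.23 for Fzd5, -0.55 to 0.21 for Pnliprp2, -0.99 to 0.0388 for Dll4 and -0.32 to 0.43 for Pcna. Pcna was -0.0038 with RLE factors and -0.0036 with DESeq2. The cause of these changes was not tested. No paired analysis was possible because the columns carry no replicate numbers of the labels. Adding genes of the locus under other names was not run, since the reference tables used here hold no gene descriptions. With 2 libraries a genotype and shared reads, single defensins of low counts are the least certain values.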
